A study of Homo sapiens and Mus musculus with 6 samples.

Results

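The genes that encode the cytosolic ribosomal proteins were followed in the promoter CHi-C call lists of a human lymphoblastoid cell line and of mouse embryonic stem cells (mESCs). A call joins a bait, a HindIII fragment captured because it holds a gene promoter, to another fragment, the other end, and is listed when its CHiCAGO score reaches 5. Members were all calls whose bait carried a cytosolic ribosomal protein symbol (RPL or RPS, a number, and no letter or A, L, X or Y, or *RPLP0*, *RPLP1*, *RPLP2* or *RPSA*), so that pseudogenes and kinases such as *RPS6KA1* stayed out. In GM12878 this gave 687 of 92929 calls, from 82 of 15389 baits, for 67 genes (39 of the large and 28 of the small ribosomal subunit). In mESCs it gave 341 of 101841 calls, from 52 of 16265 baits, for 52 genes (30 large, 22 small).

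GM12878 is an established B-lymphoblastoid line grown in suspension, and its list rests on 3 biological replicates. The mESCs were of the J1 line (strain 129S4/SvJae), expanded on irradiated embryonic fibroblast feeders that were depleted before harvest, and their list rests on 2 biological replicates, with 1 Hi-C library of the same cells. The sample titles name no treatment and no genetic modification for either cell type. Replicates were scored jointly, so each call has a single listed read count and score per cell type, there is no spread between replicates, and no comparison here could be tested. Intervals are 95% intervals (Wilson for shares, order statistics for medians), and they cover counting error only, since calls of a bait and baits of a gene are not independent.

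A ribosome consists of a small subunit, which decodes the mRNA, and a large subunit, which joins amino acids, and each is built from ribosomal RNA and a fixed set of proteins needed in near equal amounts. Most of these proteins come from a single expressed gene scattered over the chromosomes, and many of their introns carry small nucleolar RNAs that guide rRNA modification. The promoters are short and active in nearly every cell, often with a pyrimidine tract at the start site in place of a TATA box.

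To show what the baits carry, the letters around the start are given for some of the most called genes and for *RPS19* and *RPL11*, from 85 bases before to 15 bases from the start, on the sense strand. Capitals mark CCGGAAG (the core that ETS factors such as GABPA bind), GGGCGG (SP1) on either strand, or CTTTC within 10 bases of the start (the letters of the pyrimidine initiator). Human windows are RefSeq promoters on GRCh38.p14 and mouse windows were read from mm9 at GENCODE vM1 starts. *RPL23A*, the human gene with the most calls, had no entry among the RefSeq promoters. *RPS19* and *RPL11* had several RefSeq starts each, and the one with initiator letters is shown.
*RPS26*, chr12:56041833-56041932, plus strand: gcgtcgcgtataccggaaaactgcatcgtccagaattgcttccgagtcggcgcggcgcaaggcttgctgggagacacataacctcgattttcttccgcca
*RPS27*, chr1:153990677-153990776, plus strand: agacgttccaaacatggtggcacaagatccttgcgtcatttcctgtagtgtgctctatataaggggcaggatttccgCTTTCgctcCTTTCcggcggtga
*RPS19*, chr19:41860170-41860269, plus strand: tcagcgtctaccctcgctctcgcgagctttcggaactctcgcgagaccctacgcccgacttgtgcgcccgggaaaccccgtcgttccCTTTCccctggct
*RPL11*, chr1:23691721-23691820, plus strand: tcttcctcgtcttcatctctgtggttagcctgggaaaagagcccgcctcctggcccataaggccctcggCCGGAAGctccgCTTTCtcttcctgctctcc
*Rpl36*, chr17:56752733-56752832, plus strand: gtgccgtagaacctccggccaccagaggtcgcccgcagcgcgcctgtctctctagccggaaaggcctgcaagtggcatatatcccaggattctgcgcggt
*Rps19*, chr7:25669305-25669404, plus strand: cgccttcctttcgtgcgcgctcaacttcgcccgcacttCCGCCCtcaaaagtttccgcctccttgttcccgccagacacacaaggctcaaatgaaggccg
*Rpl11*, chr4:135609294-135609393, minus strand: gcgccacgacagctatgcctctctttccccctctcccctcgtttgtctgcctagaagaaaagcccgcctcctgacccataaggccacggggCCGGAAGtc

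In these windows *RPS26* and *Rpl36* held none of the letters searched. *RPL11* and its mouse counterpart both held CCGGAAG. Of the 67 human member genes, 52 matched the RefSeq table, with 65 promoters (250 bases before to 50 after the start). CTTTC within 10 bases of the start stood in 23 of 65 promoters (35.4%, 24.9 to 47.5%), beside 3.104% of all 35116 promoters in the table. CCGGAAG on either strand stood in 26 (40%, 29.0 to 52.1%), beside 10.3%, and GGGCGG in 33 (50.8%), beside 45.0%. TATAAA was found in 5 (7.69%), beside 11.5%, and the letters searched for YY1 in 2, beside 1.20%. Genes with the initiator letters in any listed promoter had a median of 7 calls in GM12878 (range 2 to 51, 23 genes), and genes with a promoter lacking them had a median of 4 (1 to 60, 33 genes). For CCGGAAG the medians were 4.5 with (22 genes) and 6 without (33 genes), and for GGGCGG 5 with (29 genes) and 6 without (25 genes). A gene with several promoters can stand in both groups, and the ranges overlapped almost wholly.

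Ribosomal protein baits had a median of 5 calls in both cell types, and other named baits a median of 3. In GM12878 the interval of the median was 3 to 6, the quartiles were 2 and 9 and the mean was 8.38, beside quartiles of 2 and 7 and a mean of 6.07 over 15051 other named baits. In mESCs the interval was 3 to 7, the quartiles were 2 and 9 and the mean was 6.56, beside quartiles of 2 and 7 and a mean of 6.26 over 16213 baits. The 2 groups of baits thus overlapped over most of their range, with other baits reaching 113 calls in GM12878 and 131 in mESCs, and ribosomal protein baits 60 and 28. In GM12878, 19 of 82 ribosomal protein baits had at least 10 calls (23.2%, 15.4 to 33.4%), where 17.6% of all baits did. In mESCs 10 of 52 did (19.2%, 10.8 to 31.9%), beside 18.9%. Baits with 1 call made up 9 of 82 in GM12878 (10.98%, 5.88 to 19.6%), beside 25.1% of all baits, and 8 of 52 in mESCs (15.4%, 8.01 to 27.5%), beside 23.4%. The share of GM12878 baits with 1 call was the only one of these 4 shares whose interval left out the value over all baits. The median stayed at 4 or 5 calls without the 3 most called genes of each cell type. Beside other baits with a protein-coding start, the medians were 5 against 3 in GM12878 and 5 against 4 in mESCs. By gene they were 5 against 4 in GM12878 and 5 against 3 in mESCs.

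**Figure D1:**
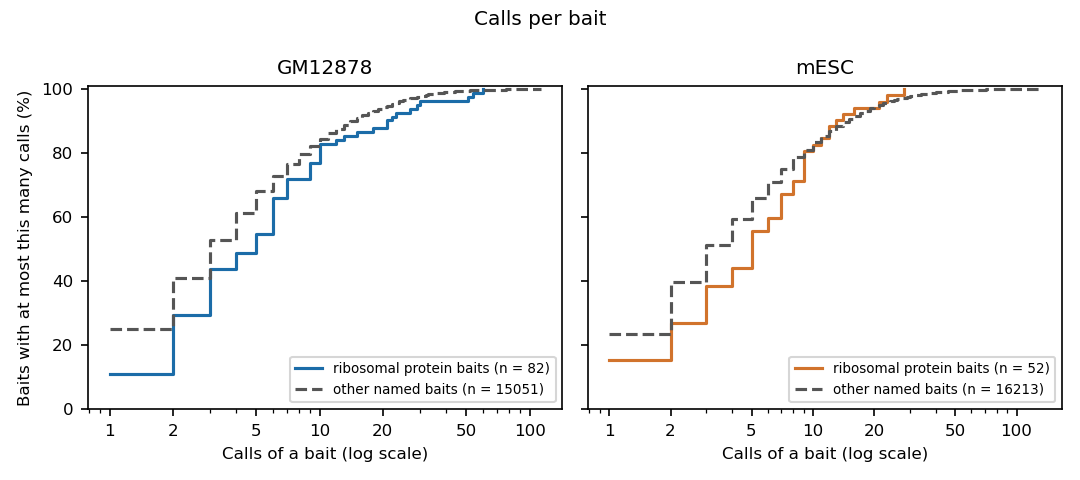
Cumulative share of baits (vertical axis, %) by their number of listed calls (horizontal axis, log scale), for ribosomal protein baits (solid line) and other named baits (dashed line) in GM12878 (left) and mESCs (right). The solid line runs below the dashed line at 1 to 7 calls in both cell types, and the lines meet at about 10 calls in mESCs.

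A median of 15 other baits lay within 500 kb of a ribosomal protein bait in GM12878, against 11 for other named baits, and 17 against 14 in mESCs. The bait fragments were also longer in GM12878 (median 8481.5 against 6952 bp), but not in mESCs (5741.5 against 5736 bp). The part of these local values in the number of calls was not tested. Of the ribosomal protein baits in GM12878, 38 also held the start of another protein-coding gene and 44 did not, with medians of 4.5 and 5 calls, so the symbol on a bait does not tell which of its promoters made a contact. In mESCs these numbers were 10 and 42 baits, with medians of 6 and 5 calls. Baits that also held a small nucleolar RNA gene numbered 26 in GM12878, with a median of 5.5 calls (interval 3 to 10) beside 4 (3 to 6) for the other 56, and 27.8% (22.9 to 33.3%) of their calls had a score of at least 10, beside 16.3% (13.1 to 20.2%). Few loci weigh heavily in that share: of the 277 calls of these baits, *RPL23A* baits supplied 54 and 30, *RPS27* 51 and *RPS13* 27. In mESCs only 9 baits held a small nucleolar RNA gene, and both values ran the other way, with a median of 4 beside 5 calls and 8.89% (3.51 to 20.7%) beside 14.2% (10.7 to 18.6%).

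Medians of other gene classes ranged from 3 to 5 calls in GM12878 and from 4 to 9 in mESCs. In GM12878 the median was 5 calls for baits of ribosome biogenesis genes (39 baits) and of translation factors (38 baits), 3 for mitochondrial ribosomal proteins (66 baits) and 4 for subunits of the respiratory chain and ATP synthase (74 baits). In mESCs the medians were 5 (27 baits), 4 (28 baits), 5.5 (42 baits) and 4 (53 baits) in the same order. A short list of ribosome companions outside the member rule, such as *FAU* and *RACK1*, had a median of 4 calls in GM12878 (interval 1 to 22, 7 baits) and of 9 in mESCs (6 to 23, 5 baits).

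Calls were spread unevenly over the genes. In GM12878, 3 genes supplied 224 of the 687 calls: *RPL23A*, whose protein lines the exit of the peptide tunnel, with 113 calls, *RPS26*, a small subunit protein near the mRNA exit, with 60, and *RPS27*, a zinc finger protein of the small subunit, with 51. They were followed by *RPLP0*, the base of the ribosomal stalk, with 28, *RPS13* with 27, *RPS7* with 23, *RPL28* with 22, and *RPL29* and *RPL41*, the shortest of the ribosomal proteins, with 21 each. In all, 20 genes had at least 10 calls, 41 had 2 to 9, and 6 had a single call. In mESCs the most called genes included *Rpl36* (28 calls), *Rps19* (23), *Rpl32* (16), *Rps14* (14), *Rpl26* (13) and *Rps16* (12). There, 10 genes had at least 10 calls, 34 had 2 to 9 and 8 had 1. By the listed bait names, no gene was among the 8 most called in both cell types. Mouse baits that hold the starts of *Rpl23a* and *Rpl28* under other names, described below, had 26 and 25 calls.

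**Figure D2:**
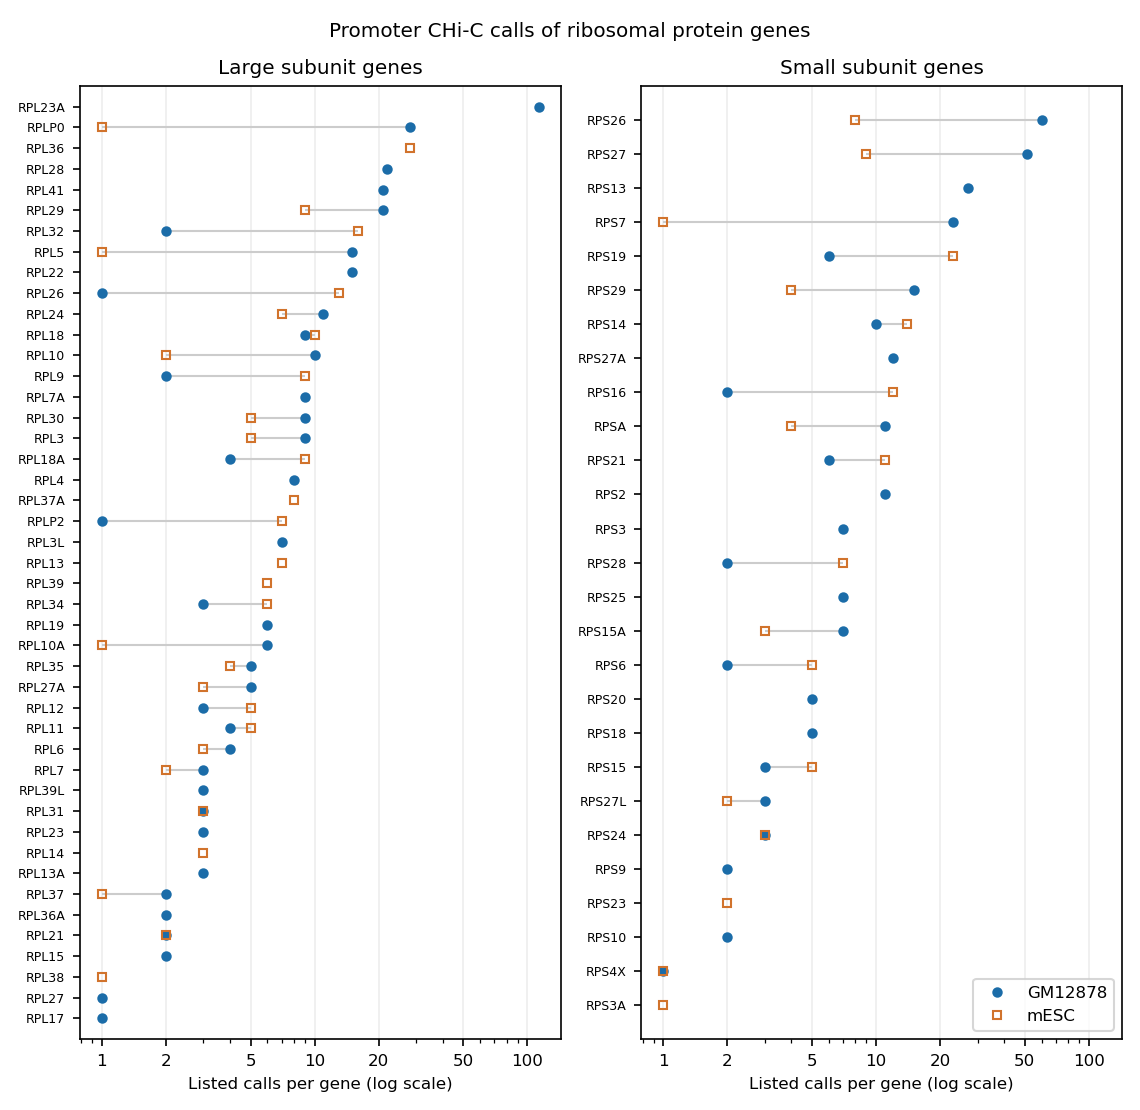
Number of listed calls (horizontal axis, log scale) of the ribosomal protein genes shown, each with a call, in GM12878 (filled circles) and mESCs (open squares), for the large subunit (left) and the small subunit (right); a grey line joins the values of a gene called in both. RPL23A stands at 113 calls in GM12878 and has no mESC symbol, since no mouse bait was listed under its name. RPLP0 and RPS7 lie far apart between the cell types.

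*RPL23A* was reached from 3 neighbouring baits on chromosome 17, with 29, 54 and 30 calls. The first, shared with *RAB34*, held no annotated start of *RPL23A*. The baits repeated one another in part: the first and second shared 22 other ends (75.9% and 40.7% of each), the second and the last 26 (48.1% and 86.7%), and the first and the last 11. Their strongest calls, with scores of 20.45 on 26 reads and 20.02 on 24 reads, ran 104 kb and 199 kb into the genes *FAM222B* and *PHF12*, and 19 of the 113 calls reached another bait. With 25 baits within 500 kb, the neighbourhood was denser in promoters than the median one.

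*RPS26* had a single bait (chr12:56434788-56438101, hg19) with 60 calls on 11 to 83 reads. Its strongest call, with a score of 24.87 on 34 reads, lay 242 kb away in *SARNP*, which encodes an mRNA export factor, and 19 calls reached other baits. There were 41 baits within 500 kb. *RPS27* (chr1:153956792-153974010) had 51 calls on 8 to 57 reads, led by 2 contacts in *GATAD2B*, a subunit of the NuRD chromatin complex, with scores of 22.02 and 21.99 at 194 and 183 kb. Its bait also carried *RAB13*, so the calls cannot be told apart by gene.

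*RPLP0* had 28 calls from 2 adjoining baits (10 and 18 calls), none farther than 112 kb. The first of the baits also held the start of *GCN1*, and the highest scores were 22.55 in *GCN1*, an activator of the amino acid starvation response, and 20.06 to the *RAB35* promoter. None of the 27 calls of *RPS13* reached another bait, which also held for members with fewer calls, such as *RPL19* with 6. The 4 strongest calls of *RPS13* all lay in *PLEKHA7*, an adherens junction gene, 127 to 294 kb away. *RPS7* reached the *ADI1* promoter with a score of 17.3 (51 reads, 104 kb). *RPL28* was strongest in *TMEM86B* (15.95, 160 kb) and *RPL29* in *POC1A* (12.48, 152 kb).

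In mESCs *Rpl36* had 28 calls on 7 to 89 reads, with its highest scores in *Tmem146* (16.19, 52.1 kb) and *Uhrf1*, a DNA methylation maintenance factor (12.49, 293 kb). *Rps19*, the gene most often mutated in Diamond-Blackfan anaemia, had 23 calls at a median of 69.6 kb, and its strongest lay outside annotated genes 37.5 kb away (15.41, 42 reads). The 13 calls of *Rpl26* lay between 56.7 and 139 kb from the bait.

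**Figure D3:**
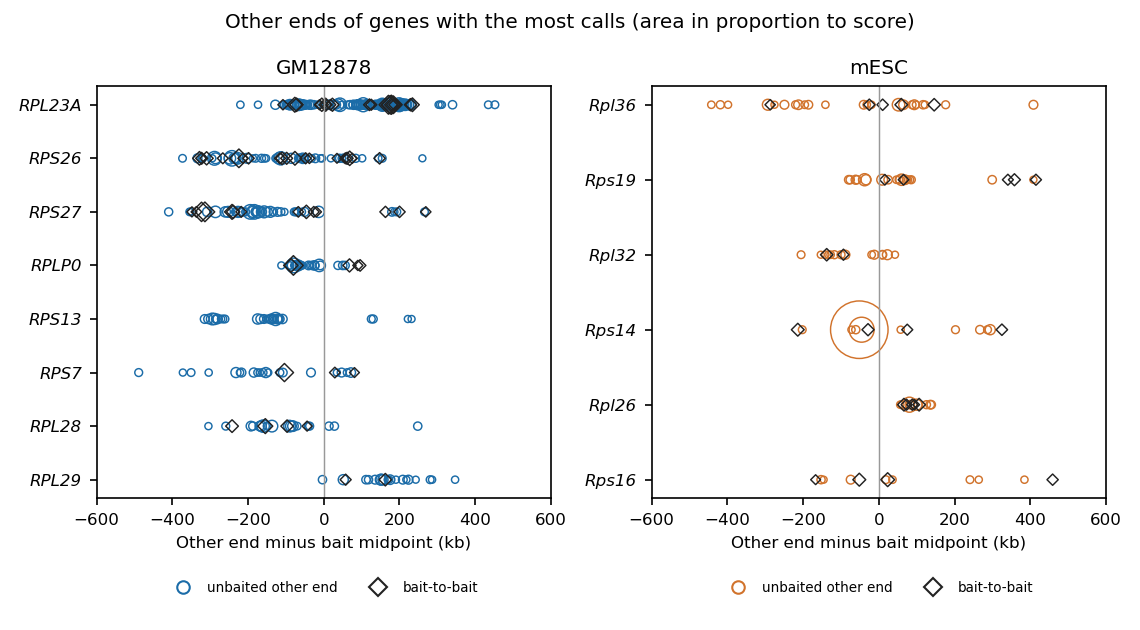
Position of each *cis*-chromosomal other end relative to the bait midpoint (horizontal axis, kb, along the reference strand) for genes among the 8 most called in GM12878 (left) and mESCs (right); circles are unbaited other ends, diamonds bait-to-bait calls, and symbol area is in proportion to the CHiCAGO score. RPS13 has no diamonds, and the largest circle is the call of Rps14 in Ndst1 with a score of 346.19.

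The genes singled out for special roles ranged, where they had a call, from 1 to 28 calls in GM12878 and from 1 to 23 in mESCs. *RPL5* and *RPL11*, which bind 5S rRNA and restrain MDM2, had 15 and 4 calls in GM12878 and 1 and 5 in mESCs. All 4 calls of human *RPL11* were bait-to-bait, led by the promoters of *E2F2* (13.37 on 25 reads, 163 kb) and *ID3* (9.97 on 23 reads, 133 kb), and in mESCs the strongest call of *Rpl11* (9.96 on 13 reads, 85 kb) reached a bait named for U6.742 that holds the *Id3* start. *RPS6*, the substrate of S6 kinase, had 2 and 5 calls. *RPSA*, also known as the laminin receptor, had 11 and 4, and *RPL10*, which completes the large subunit, had 10 and 2. *RPL22* had 15 calls in GM12878, and *RPS27A*, which is made as a fusion with ubiquitin, had 12. *RPS4X* had 1 call in each, to the *CITED1* promoter at 29.9 kb in GM12878 and to *Pin4* at 71.4 kb in mESCs. *RPLP2*, a stalk protein, had 1 call in GM12878 and 7 in mESCs, and *RPLP1*, its partner, had none in either list. Others with 1 call in GM12878 were *RPL26*, *RPL27* and *RPL17*, with 7 to 14 reads and scores of 5.14 to 7.59. In mESCs they were *Rpl38*, *Rps7*, *Rpl37*, *Rpl10a*, *Rps3a*, *Rpl5* and *Rplp0*, with 6 to 82 reads and scores of 5.14 to 7.22.

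Not every ribosomal protein gene had a call of its own. Of 77 cytosolic ribosomal protein genes of the standard set, 64 had one in GM12878, and the other members there were the paralogs *RPL3L*, *RPL39L* and *RPS27L*. The 13 without included *RPL8*, *RPL13*, *RPL14*, *RPL35A*, *RPL36*, *RPL37A*, *RPL38*, *RPL39*, *RPLP1*, *RPS3A*, *RPS12* and *RPS23*, and 6 of the 13 were reached as an other end, by 1 call each. In mESCs 51 had one. Lacking a call is not particular to these genes, since the paper counts more captured baits than the 15389 (GM12878) and 16265 (mESCs) listed with a call. The share over all genes was not computed, and neither was that of genes reached only as an other end. These counts are therefore no result about ribosomal protein genes as a class. The mouse list named a bait after a single gene, with 6 of 16265 baits carrying several symbols, where 5547 of 15133 named baits (36.7%) did in GM12878. A mouse fragment that holds a ribosomal protein start could therefore be listed under a neighbour or a small nucleolar RNA, and this was so for 28 baits with 247 calls, which hold the starts of 24 genes, 19 of them without a member bait. The start of *Rpl23a* lay in a bait named for *Snord4a* with 26 calls, that of *Rpl28* in one named for 2210411K11Rik with 25, that of *Rps18* in one named for *Vps52* with 20, and that of *Rpl13a* in one named for *Snord35a* with 19. With these baits added, mESCs had 80 baits and 588 calls, the median stayed at 5 calls per bait, and no listed bait held the start of 7 genes (*Rpl17*, *Rpl22*, *Rpl27*, *Rpl35a*, *Rpl41*, *Rplp1* and *Rps3*). In GM12878 the same search added 1 bait with 4 calls.

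Contacts of the ribosomal protein baits were nearly all within 1 Mb, as were those of other named baits. The median distance between fragment midpoints was 141 kb (127 to 152 kb) in GM12878, beside 174 kb for other named baits, and 112 kb (97.0 to 129.9 kb) in mESCs, beside 139 kb. Calls under 100 kb made up 37.1% (33.6 to 40.8%) against 29.8% in GM12878 and 45.2% (40.0 to 50.5%) against 39.0% in mESCs. At 50 to 100 kb the shares were 20.1% against 14.3% of calls in GM12878 and 23.2% against 16.4% in mESCs, and at 100 to 200 kb they were 32.5% against 26.1% and 23.5% against 24.3%. At 200 to 500 kb the difference ran the other way, with 26.9% against 35.5% and 24.6% against 27.1%. The direction in mESCs depended on which names were read: with bait names split at semicolons only, which finds 25 of the 52 mouse baits because that list joins transcript names with a vertical bar, the median was 141 kb beside 139 kb. In GM12878, baits with ribosomal protein symbols only had a median of 160.2 kb (136 to 177 kb), and that interval takes in the 174 kb of other named baits. The sides of the gene were about equal, with 52.0% (48.2 to 55.7%) upstream of it in GM12878 and 48.4% (43.1 to 53.7%) in mESCs. Median distances of ribosome biogenesis genes, translation factors, mitochondrial ribosomal proteins and the respiratory chain were 205, 150, 180 and 144 kb in GM12878. In mESCs they were 92.6, 130, 162 and 157 kb.

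**Figure D4:**
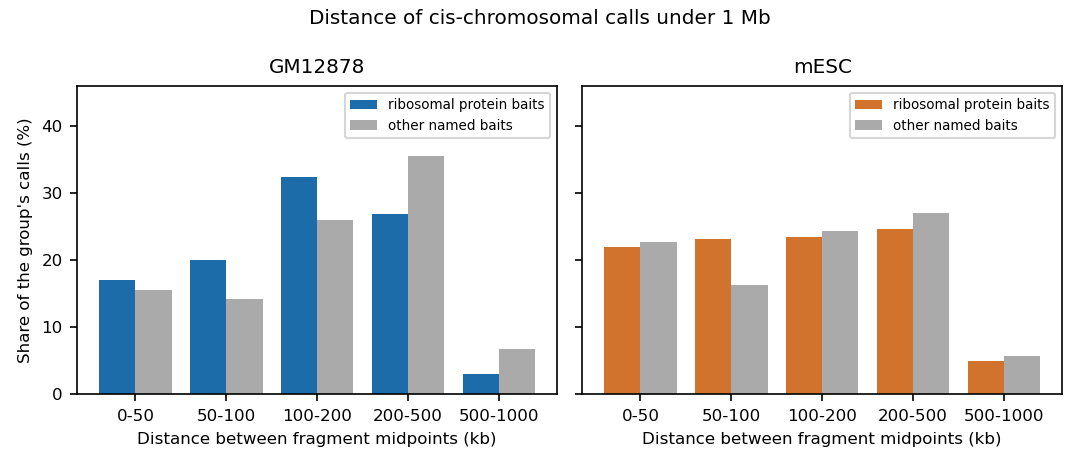
Share of calls (vertical axis, % of all calls of the group) in 5 classes of distance between fragment midpoints (horizontal axis, kb) for ribosomal protein baits (coloured) and other named baits (grey). The coloured bar is taller than the grey one at 50 to 100 kb in both cell types and shorter at 200 to 500 kb.

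The longest *cis*-chromosomal calls were few and on few reads. In GM12878, 3 calls passed 1 Mb (0.437%, 0.149 to 1.28%), beside 1.64% of the calls of other named baits. All 3 came from the bait of *RPS24* and *POLR3A*, at 1160, 1194 and 1286 kb on 8, 7 and 7 reads. In mESCs there were 4 (1.17%, 0.457 to 2.98%, beside 3.38%), among them 1 from *Rpl30* at 2848 kb on 4 reads.

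*Trans*-chromosomal calls were rare. None of the 687 calls in GM12878 was one, which allows a share of up to 0.437%, beside 288 of 91340 calls (0.315%) of other named baits, and 0.273% of all baits had any. In mESCs 2 of 341 were (0.587%, 0.161 to 2.11%), beside 577 of 101500 (0.568%), and they came from 2 of 52 baits (3.85%, 1.06 to 13.0%) where 2.02% of all baits had any. With the mouse baits that hold a ribosomal protein start under another name added, the share was 1.19% (0.578 to 2.44%) beside 0.565%, and 4 of the added calls came from the bait of *Rpl23a* named for *Snord4a*. The 2 *trans*-chromosomal calls of the member baits reached very short fragments that no other bait called, while the added calls were not examined in this way. *Rps21* was joined to a fragment of 327 bp on chromosome 7 inside *Nell1* on 12 reads with a score of 97.43, and *Rps6* to one of 363 bp on chromosome 13 outside annotated genes on 4 reads with a score of 23.75. Each short fragment resembled its bait. The *Nell1* fragment aligned to the *Rps21* bait over 259 bp at 95.8% identity, outside the exons of *Rps21*, and the chromosome 13 fragment aligned to the *Rps6* bait over 218 bp at 95.9% identity, with 216 bp in exons of *Rps6*. Likeness was also found in *cis*: 4 alignments of at least 100 bp at 90% identity or more joined the *Rps14* bait to each of the 2 *Ndst1* fragments described below, and 4 joined the *RPL10A* bait to the *PPARD* fragment. The part of this likeness in the calls was not tested.

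Listed read counts were weighted and rounded over replicates, so they are not raw counts. Members had a median of 19 reads in GM12878 (18 to 20), beside 15, and 13 in mESCs (12 to 14), beside 13. Read counts fall with distance, and within classes of distance the medians were close. They were 37 and 36 reads under 50 kb, 23 and 22 at 50 to 100 kb, 18 and 17 at 100 to 200 kb and 13 and 12 at 200 to 500 kb in GM12878. The median score was 6.90 (6.69 to 7.12) beside 6.63 in GM12878 and 6.67 (6.41 to 6.93) beside 6.62 in mESCs. Without the 3 most called genes the mESC value fell below that of other baits (6.51 beside 6.62). Calls with a score of at least 10 made up 21.0% (18.1 to 24.2%) beside 16.3% in GM12878 and 13.5% (10.3 to 17.5%) beside 17.0% in mESCs. At least 1 such call was listed for 42 of 82 baits in GM12878 (51.2%, 40.6 to 61.7%), beside 35.1% of all baits, and for 22 of 52 in mESCs (42.3%, 29.9 to 55.8%), beside 36.3%.

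The highest scores belonged to few loci. In GM12878 they included the contact of the *RPL10A* bait with the promoter of *PPARD*, a nuclear receptor (38.7 on 37 reads, 111 kb), the *RPS26* call above, and a call of *RPL35* to an unbaited fragment 88.1 kb away (24.55 on 50 reads). In mESCs, *Rps14* was joined to 2 adjoining fragments in *Ndst1*, a heparan sulphate enzyme, with scores of 346.19 on 340 reads at 51.5 kb and 65.27 on 81 reads at 45.4 kb. High scores were also listed for the *trans*-chromosomal call of *Rps21* and the call of *Rps21* to *Adrm1*, a proteasome receptor (25.43 on 27 reads, 84.0 kb). The next highest member score after the *Ndst1* call was 97.43, and other named baits of mESCs reached 2252.5.

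Bait-to-bait calls made up 30.4% of member calls in GM12878 (27.1 to 34.0%), beside 29.4%, and 46.3% in mESCs (41.1 to 51.6%), beside 36.3%. By bait, 62 of 82 had at least 1 in GM12878 (75.6%, 65.3 to 83.6%), beside 61.3% of all baits, and 46 of 52 in mESCs (88.5%, 77.0 to 94.6%), beside 68.2%. In GM12878 the share did not keep its direction, since it was 23% beside 26.0% when each fragment pair was counted once and 30.6% beside 44.7% at a score of at least 10. The subunits differed: in GM12878 it was 40.5% (35.1 to 46.01%) for small and 22.2% (18.3 to 26.7%) for large subunit baits, and in mESCs 55.3% (47.6 to 62.9%) and 38.5% (31.7 to 45.7%). No test of this difference was possible, and *RPL23A* alone supplied 113 of the 378 large subunit calls in GM12878, 19 of them bait-to-bait. Baits with at least 5 calls, all of them bait-to-bait, numbered 8 of 42 in GM12878 (19.05%, 9.98 to 33.3%), beside 14.6% of all such baits. They included those of *RPS27A* (12 calls), *RPL10* (10), *RPS3* and *RPS25* (7 each), *RPSA* and *RPL10A* (6 each), and *RPS20* (5). In mESCs there were 2 of 29 (6.90%, 1.91 to 22%), beside 11.0%. Among other gene classes, the bait-to-bait share of calls in mESCs was 35.3% for ribosome biogenesis and 37.8% for translation factors. It was 49.0% for mitochondrial ribosomal proteins and 44.2% for the respiratory chain and ATP synthase. In GM12878 these classes had 24.0%, 31.1%, 35.4% and 31.3% in the same order.

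A protein-coding start lay in 45.9% of other ends in GM12878 (42.2 to 49.6%), beside 37.5%, and in 51.0% in mESCs (45.7 to 56.3%), beside 41.3%. Other ends outside protein-coding genes made up 13.2% (10.9 to 16.0%) beside 26.2%, and 18.5% (14.7 to 22.9%) beside 25.0%. Among unbaited other ends alone, a start was found in 28.7% (24.8 to 32.9%) beside 17.5% in GM12878 and in 16.4% (11.7 to 22.4%) beside 12.2% in mESCs. Another bait called the same other end for 79.6% of member calls in GM12878 (76.4 to 82.5%), beside 66.3%, and for 84.2% in mESCs (79.9 to 87.7%), beside 73.6%. Of the bait-to-bait calls, 50.2% (43.5 to 57.0%) were listed from both ends in GM12878, beside 31.2%, and 42.4% (35.0 to 50.2%) in mESCs, beside 41.6%. In the other direction, the fragments of *RPL23A* were the other end of 28 calls in GM12878, those of *RPS26* of 21, and those of *RPL41* and *RPS27* of 16 each, while in mESCs *Rpl18* received 20 calls and *Rps19* 16.

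Few calls carried a ribosomal protein name at both ends. In GM12878, 9 calls had a member at both ends, and 6 of these joined 2 fragments of 1 gene: *RPL23A* from both ends (110 reads, 5.04 kb), *RPS29* from both ends (50 reads, 13.2 kb), and *RPL3* and *RPSA* from 1 end each. Fragments named for different member genes were joined at 2 places. *RPS26* and *RPL41* were called from both ends on 60 reads at 68.6 kb, with scores of 10.93 and 7.06, and *RPL23* was joined to *RPL19* on 10 reads at 342 kb with a score of 6.44. The *RPL41* fragment also held the start of *PA2G4*, and those of *RPL23* and *RPL19* held the starts of *LASP1* and *CACNB1*. Which promoters met at these places cannot be told apart. In mESCs there were 2 such calls, among them *Rpsa* to *Rpl14* on 7 reads at 444 kb (6.19). These counts go by the listed names, and further pairs can stand under a neighbour's name, such as the call of *Rps28* to the bait named for *Vps52* that holds the *Rps18* start (19 reads, 128 kb, 5.03).

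In mESCs the calls could be set beside the Hi-C library, in which pairs of 25-kb bins were listed with a false discovery rate under 0.05. Of 335 member calls under 1 Mb, 57 lay in such a bin pair (17.0%, 13.4 to 21.4%), beside 11.4% of the calls of other named baits. The 57 calls were unevenly spread over the baits. *Rpl26*, for example, supplied 10 of them, *Rps28* 6 and *Rpl36* 5, while most baits had none. The share was highest at 50 to 100 kb, with 25 of 79 calls (31.6%, 22.4 to 42.5%) beside 16.5%. It was 17.5% (10.7 to 27.3%) beside 11.3% at 100 to 200 kb and 14.7% (8.39 to 24.4%) beside 12.3% under 50 kb. At 200 to 500 kb it was 8.33% beside 7.42%, and none of 17 calls at 500 to 1000 kb lay in one, beside 13.1%. With names split at semicolons only the overall share was 9.88%, beside 11.5%. Among other gene classes the share was 17.2% for ribosome biogenesis and 26.4% for translation factors. It was 8.28% for mitochondrial ribosomal proteins and 5.95% for the respiratory chain and ATP synthase.

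Between the cell types, 43 member genes had calls in both. Species, cell type and bait design differ together here and cannot be told apart. Naming differs too: 13 of the 67 human member genes had more than 1 bait, among them *RPLP0* and *RPL5* with 2 each. Each mouse member gene had 1. The 19 genes whose mouse starts lay only under other bait names were left out. Further mouse baits of matched genes, such as 1 with 2 calls for *Rpl5*, were not counted. The part of naming in these values was not tested. *RPS26* had 60 calls in GM12878 and 8 in mESCs, *RPS27* 51 and 9, *RPLP0* 28 and 1, *RPS7* 23 and 1, and *RPL5* 15 and 1. In the opposite direction, *RPS19* had 6 and 23, *RPL32* 2 and 16, *RPL26* 1 and 13, and *RPS16* 2 and 12. In all, 21 genes had more calls in GM12878, 18 more in mESCs and 4 as many in both, with a median of 5 in each. Across these 43 genes Spearman's rho was -0.074 and Pearson's r was -0.022, and rho was 0.25 across 7837 other matched genes. These values are a description in which genes with neighbouring baits share contacts. No interval was computed, 43 genes give only a rough value, and whether the values of rho differ was not tested.

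**Figure D5:**
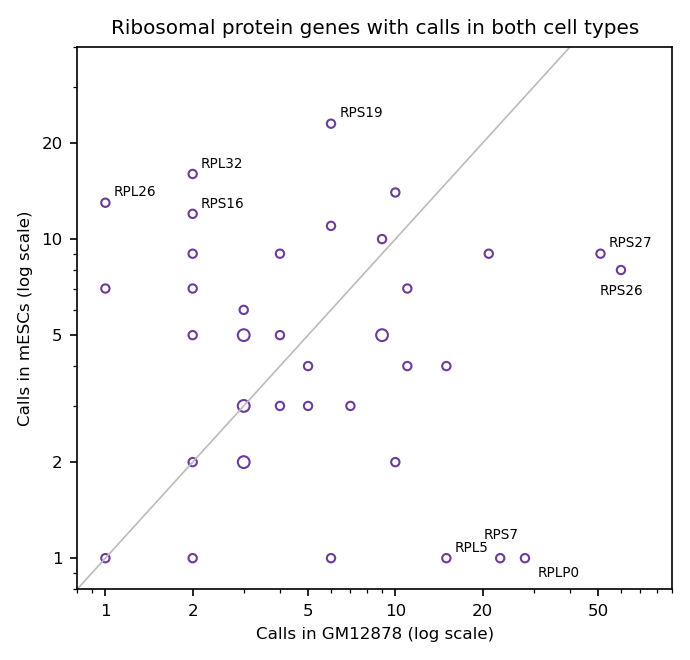
Calls of ribosomal protein genes in GM12878 (horizontal axis) and mESCs (vertical axis), both on log scales, with the line of equal numbers in grey and larger circles where genes coincide. Genes with large differences are named, RPS26 (60 and 8) and RPS19 (6 and 23) among them.

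Partner promoters could still be the same where the numbers differed. Of 24 member genes with a named partner in both lists, 14 shared at least 1 (58.3%, 38.8 to 75.5%), beside 61.0% of 2983 matched genes of any kind. The shared partners numbered 22, or 27.2% of the 81 partners in GM12878 and 28.2% of the 78 in mESCs, beside 33.3% and 31.8% for other matched genes. *RPS27* met *JTB*, *NPR1*, *SLC39A1* and *SNAPIN* in both, and *RPS26* met *CDK2*, *IKZF4* and *PA2G4*. A human bait of *PA2G4* that *RPS26* reached also carries *RPL41*. *RPS29* met *RPL36AL*, a ribosomal protein paralog outside the member rule, with scores of 11.59 and 7.75 in GM12878 and 24.01 in mESCs. *RPSA* met *GORASP1* and *RPS6* met *HAUS6* in both.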

How the data were processed

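Promoter CHi-C had been made from 3 biological replicates of GM12878 and 2 of mESCs, and Hi-C from 1 mESC library. The authors mapped reads with HiCUP (Bowtie 1.1.0 in the submitters' processing notes) to hg19 and mm9, kept read pairs with an end on a bait, and called interactions jointly over replicates with CHiCAGO. The deposited lists hold a CHiCAGO score, a soft-thresholded and weighted p-value on a log scale, with a threshold of 5, and a read count weighted over replicates and rounded, which was treated here as a score and not as raw counts. The deposited Hi-C list gives a p-value corrected as a false discovery rate for each pair of 25-kb bins, made with HOMER (4.7 in the submitters' processing notes). The deposited lists do not hold the total depth of each library, so intervals cover the counting of calls only.

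Bait names were split at semicolons, vertical bars and commas, transcript suffixes were removed, and symbols were matched in capitals. All 671 human and 389 mouse fragments of member calls start at a HindIII site of GRCh37 and NCBIM37, so GENCODE v44lift37 and vM1 were used for starts and genes. A call was bait-to-bait if its other end was a bait of another call or carried a name. A share of 0 was limited at 3 calls. Promoter letters were searched in RefSeq promoters, and blastn (2.17.0) compared both ends of the highest scoring and *trans*-chromosomal member calls. Tables were made with Python 3.11.15 and scipy 1.17.1, and counting was checked on a simulated list. With 1 call set per cell type no test was made.

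The members and gene lists were chosen with earlier results of these data known. Named were the 8 genes with most calls per cell type and those with 1 call, the 5 highest scores, the 3 longest calls, all *trans*-chromosomal and member-to-member calls, the 5 largest and 5 smallest differences between cell types, and 12 genes of known special roles. Genes shown as shared partners, under other bait names or without calls were chosen after their values were seen. Alternatives were a score or read minimum of 10, each fragment pair once, members without shared symbols or without paralogs ending in L, other units and comparison baits, and a false discovery rate of 0.01. Some genes and contacts that the naming rule selects are not reported here and were left out of the figures, while the counts over all members include them.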

Additional observations from a re-analysis of the deposited data

How the results depend on the processing

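No paired analysis was possible because the listed calls are pooled over replicates, and for the same reason no replicate could be left out. Each summary was recomputed under the alternatives, 115 values in all. Of these, 87 did not cross the value of the other baits and, where the reported value had an interval, stayed within it, 18 moved farther without crossing the value of the other baits, and 10 crossed it; the cause was not tested except where the setting removes calls by construction. A score of at least 10 leaves fewer calls by construction and gave, in GM12878, 2 calls per bait, 25 reads, a score of 12.2 (below the 12.6 of other baits) and a bait-to-bait share of 30.6% (below 44.7%), and in mESCs 1.5 calls per bait, 60.2 kb, 30 reads, a score of 13.7, a bait-to-bait share of 54.3%, a *trans*-chromosomal share of 4.35%, a Hi-C share of 36.4%, and 10 matched genes in place of 43, with Spearman's rho at -0.20 in place of -0.074. A minimum of 10 reads gave median distances of 126 kb in GM12878 and 79.4 kb in mESCs, 18 reads in mESCs and a score of 7.07 there, below 7.11. Counting each fragment pair once gave bait-to-bait shares of 23% (below 26.0%) and 39.4%. Baits with ribosomal protein symbols only gave, in GM12878, 160.2 kb, 17 reads, a score of 6.51 (below 6.63) and a bait-to-bait share of 20.4% (below 29.4%). The interval of that distance, 136 to 177 kb, took in the 174 kb of other baits. Of the alternatives chosen after seeing the data, splitting names at semicolons only gave, in mESCs, 141 kb (above 139 kb), 11 reads, a score of 6.51 (below 6.62) and a Hi-C share of 9.88% (below 11.5%), and leaving out the 3 most called genes gave a score of 6.51 (below 6.62) and a bait-to-bait share of 51.7%. Membership by annotated start left every recomputed value within its interval, with the *trans*-chromosomal share of mESCs at 1.19% in place of 0.587%. The number of calls per bait kept its side of the other baits under every alternative except a minimum of 10 reads in mESCs, where both medians were 3.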
